A study of Mus musculus with 15 samples.

Results

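Ints7 encodes INTS7, a subunit of the Integrator complex, which binds RNA polymerase II and holds an endonuclease that cuts nascent RNA. The complex is best known for making the 3' ends of small nuclear RNAs and for ending transcription early on many protein-coding genes. ATAC-seq, the assay named for these data, lets a transposase cut accessible DNA, so that regions with more sequenced fragments are read as more open chromatin. Whether the counts analysed here come from such fragments alone could not be settled: the labels give genomic DNA as the molecule but describe an RNA extraction, the submitters' processing notes name the aligner STAR, and the counts at Ints7 lay mainly on exons. Some neighbouring exon regions also shared counts, as described at the end. Levels are therefore given as counts over regions, and whether they measure open chromatin was not tested. Ints7 lies on the forward strand of chromosome 1, and the gene next to it on the side of its start is Dtl, which runs the other way and encodes a substrate receptor of a ubiquitin ligase that acts in DNA replication.

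The regions described here were those of either deposited table that overlap chr1:191306000-191357500 of the mouse build mm39. One table was made for the knockdown comparison (the KD table), and the rule found 16 of its 44598 regions. The other was made for the overexpression comparison (the OE table), and 9 of its 38036 regions fell under the rule. The gene was chosen because its regions differed between the Smarcd1 knockdown lines and their control. The values of that comparison are therefore a description without a test. Regions within 50 kb served as the local reference. There were 10 of them among the KD regions and 8 among the OE regions, and all of them lay on the Dtl side, since 0 regions were listed within 50 kb past the end of Ints7. The nearest region outside the interval (chr1:191304681-191305081) had 5.82 ± 0.832 CPM (counts relative to the scaled library total) in KD4, 4.76 ± 1.45 CPM in KD6 and 5.05 ± 0.378 CPM in Scr (SD, n = 3).

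All 15 libraries came from 6DT1, a metastatic mouse mammary cancer cell line, grown untreated in monolayer. The groups, with 3 libraries each, were KD4 and KD6, which carried shRNA constructs against Smarcd1, Scr, which carried a scrambled shRNA, OE, which overexpressed a Myc-tagged Smarcd1 cDNA, and EV, which carried the empty vector. Smarcd1 encodes a subunit of the BAF chromatin remodelling complex, and the comparison asked whether its level changes chromatin accessibility. Each line was made by lentiviral transduction and drug selection, with puromycin for shRNA and blasticidin for cDNA, and whether a line is a clone or a pool is not stated. Any difference between Scr and EV therefore cannot be told apart from the difference in vector and drug, nor from a trait of either line. Scr was a single line, so a difference of KD4 and KD6 from Scr cannot be told apart from a trait of that line. Per the labels, each biological replicate was seeded from a separate passage, although that note is written for an RNA extraction.

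Total counts per library were 16176518 to 23703753 over the KD regions and 22668622 to 31225956 over the OE regions. In the OE table edgeR called 4 regions between OE and EV, all 4 higher in OE and on chromosome 15. A shift chosen to put most of their bases on Smarcd1 exons (1014 of 1435) had all 4 touch an exon. Their summed level was 56.7 ± 4.53 CPM in OE and 22.9 ± 2.64 CPM in EV (SD, n = 3). These regions were picked by this comparison and the shift was fitted on them, so the sum is a description. Whether it measures the overexpression was not tested. The same sum was 7.00 ± 1.06 CPM in KD4, 11.3 ± 0.212 CPM in KD6 and 9.89 ± 0.967 CPM in Scr. KD6 was thus above Scr and KD4 below it, so these counts do not show the knockdown in KD6, and whether they could do so depends on what was counted, which was not tested. No mm39 annotation was used, so markers of mammary cells and the other Integrator genes were not examined.

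Part of the listed regions lay on exons of Ints7. One common shift between their positions and the 20 exons of the GENCODE M1 gene model put 2421 of the 6030 bases of the 16 regions on exons. The region at exon 20 alone gave 1432 of these bases. Exons make up 8.96% of the model, but the shift was chosen for this overlap, so that share is not its chance level. The best other shift more than 200 bp away gave 1723 bases, and it placed 1 region wholly on an exon, against 6 at the best shift. At the same shift 3 of the 10 flanking regions of the KD table lay wholly on exons of Dtl, which the shift had not been chosen on. These 3 regions are neighbours, so they are not separate checks, and the chance level of this overlap was not worked out. By this spacing 7 of the 16 regions touched exons 1, 6, 7, 11, 13, 19 and 20, 7 lay between exons, 1 lay before the start and 1 lay past the last exon of the model but within the RefSeq length of the gene. Of the 7 exon regions, 6 lay wholly on an exon. The region at exon 7 covered that exon but had 24.3% of its bases on it. The first exon region began 27 bp into exon 1, and the nearest region before the start ended at position -1658 bp relative to that exon, so no listed region spanned the start itself.

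The exons under 3 of these regions are shown because their regions carried large differences between lines and lie apart along the gene. They are exon 6, exon 11 (listed in both tables) and exon 19. Sequences are from the GENCODE M1 transcript of Ints7, which follows the older NCBIM37 build, and capitals mark the bases under the listed mm39 region at the shift given above.
Ints7 exon 6: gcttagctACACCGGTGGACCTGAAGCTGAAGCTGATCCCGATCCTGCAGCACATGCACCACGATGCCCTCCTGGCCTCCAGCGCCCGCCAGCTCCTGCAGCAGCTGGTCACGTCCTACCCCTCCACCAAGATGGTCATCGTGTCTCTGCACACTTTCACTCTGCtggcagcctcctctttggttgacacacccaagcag
Ints7 exon 11: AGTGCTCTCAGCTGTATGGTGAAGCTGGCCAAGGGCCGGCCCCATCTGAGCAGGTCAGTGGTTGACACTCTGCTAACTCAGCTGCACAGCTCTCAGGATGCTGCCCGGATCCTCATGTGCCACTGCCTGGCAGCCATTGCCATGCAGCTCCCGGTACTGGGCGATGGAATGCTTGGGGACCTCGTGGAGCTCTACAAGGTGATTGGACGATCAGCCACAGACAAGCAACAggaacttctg
Ints7 exon 19: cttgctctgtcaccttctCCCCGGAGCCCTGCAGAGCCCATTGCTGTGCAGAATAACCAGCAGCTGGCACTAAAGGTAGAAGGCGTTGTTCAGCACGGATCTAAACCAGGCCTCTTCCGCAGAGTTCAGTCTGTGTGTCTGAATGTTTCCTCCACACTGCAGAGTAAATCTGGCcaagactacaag

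Counts were densest on the exons in every line. Per kb of region, and as the mean of the 15 libraries, the exon regions had a median of 62.0 CPM and a range of 20.04 to 133 CPM, whereas the regions between exons had a median of 6.66 CPM and a range of 3.45 to 12.8 CPM. The highest density was at exon 1 and the lowest of the exon regions was at exon 7, the region with most of its bases off the exon. The flanking regions that touched Dtl exons had a median of 48.4 CPM per kb. The exon regions held 85.5% ± 0.685 of the counts of the 16 Ints7 regions in KD4, 86.1% ± 2.44 in KD6, 77.8% ± 1.04 in Scr, 85.4% ± 1.36 in OE and 86.0% ± 0.953 in EV (SD, n = 3).

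Summed over the 16 regions, Ints7 had 173 ± 8.17 CPM in KD4, 156 ± 18.998 CPM in KD6 and 91.3 ± 11.1 CPM in Scr, with 168 ± 2.11 CPM in OE and 168 ± 8.75 CPM in EV (SD, n = 3). The Scr line stood apart from the other 4 lines. By library the sum was 175, 179.9 and 164 CPM in KD4 and 161, 171 and 135 CPM in KD6, against 81.8, 104 and 88.5 CPM in Scr. It was 170.4, 166 and 168 CPM in OE and 177, 159 and 168 CPM in EV. The lowest of these 12 libraries, KD6 replicate 3, was above the highest Scr library. The log2 ratio of KD to Scr was 0.85, that of KD4 to Scr 0.92 and that of KD6 to Scr 0.77, and the log2 ratio of Scr to EV was -0.88. The Scr libraries also had low total counts, 16176518 to 19152971, against 21050536 to 23703753 in EV, while those of KD4 ran from 17339307 to 21216338, and the part of depth in the result was not tested.

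The gap lay in the exon regions. The division into exon and other regions was made after the values were seen. The 7 exon regions summed to 148 ± 6.75 CPM in KD4, 134 ± 19.8 CPM in KD6 and 71.1 ± 9.62 CPM in Scr, with 144 ± 1.46 CPM in OE and 145 ± 7.47 CPM in EV. Scr thus had 0.491 times the EV level, and the knockdown lines together had 1.99 times the Scr level. The 8 regions between exons and before the start summed to 20.4 ± 2.08 CPM in KD4, 16.9 ± 1.01 CPM in KD6, 17.8 ± 1.69 CPM in Scr, 18.9 ± 2.27 CPM in OE and 18.5 ± 2.29 CPM in EV. Their log2 ratio was 0.07 for KD to Scr and -0.06 for Scr to EV, and the 3 Scr libraries (16.6, 19.7 and 17.1 CPM) lay within the range of the others. KD4 (19.7, 22.8 and 18.8 CPM) did not overlap with KD6 (15.8, 17.6 and 17.5 CPM) in this sum. The same held in the sum of the 10 flanking regions, with 155.5, 169.4 and 163.1 CPM in KD4 and 132.5, 131.7 and 134.1 CPM in KD6. It is thus not particular to Ints7, and how often it holds over all regions was not counted. Exon counts over the counts of these 8 regions, a ratio that no library scaling can move, were 7.26 ± 0.496 in KD4, 7.97 ± 1.36 in KD6, 3.98 ± 0.174 in Scr, 7.68 ± 1.04 in OE and 7.86 ± 0.860 in EV. The region past the last model exon, described below, was in neither part of the ratio.

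**Figure D1:**
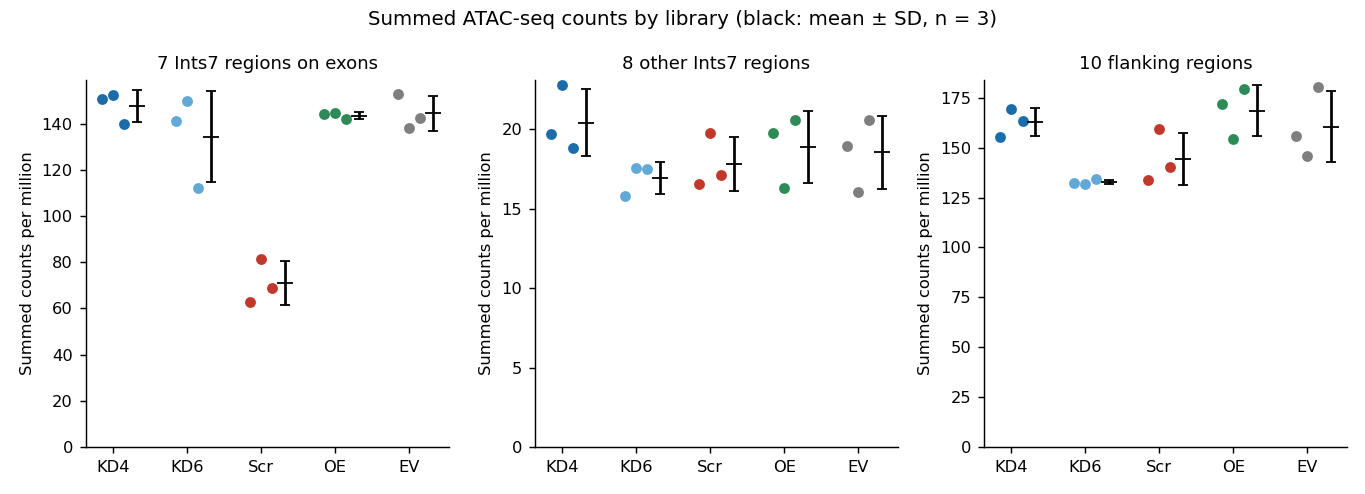
CPM summed over the 7 Ints7 regions on exons, the 8 regions between exons or before the start, and the 10 flanking regions of the KD table. Coloured points are libraries of KD4, KD6, Scr, OE and EV, and black bars are the mean ± SD of 3. On exons the Scr libraries (62.8, 81.6 and 68.7) lie below all 12 others, while in the other panels they lie within the range of the others.

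The flank did not show this gap. The 10 flanking regions summed to 163 ± 6.97 CPM in KD4, 133 ± 1.197 CPM in KD6 and 144 ± 13.2 CPM in Scr, with 169 ± 12.96 CPM in OE and 161 ± 17.8 CPM in EV. The 4 flanking regions that touched Dtl exons summed to 136 ± 6.33 CPM in KD4, 112 ± 2.98 CPM in KD6 and 120.0 ± 13.95 CPM in Scr, with 141 ± 7.26 CPM in OE and 138 ± 13.7 CPM in EV. One of these regions (chr1:191288572-191289192) had 190 of its 621 bases on a Dtl exon. In this sum the Scr mean lay between those of KD4 and KD6, and the Scr libraries (109, 136 and 116 CPM) overlapped the range of each. Ints7 counts over flank counts were 1.06 ± 0.0593 in KD4, 1.17 ± 0.153 in KD6, 0.631 ± 0.0194 in Scr, 1.00 ± 0.0723 in OE and 1.05 ± 0.109 in EV. The 3 Scr ratios, 0.612, 0.650 and 0.632, varied little among themselves.

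In the KD table, Scr was the lowest line at every exon region along the gene. These regions come from the same libraries, and those at exons 6 and 7 and at exons 19 and 20 shared counts. They are therefore not separate repeats. At exon 1 (chr1:191307902-191308059) the levels were 24.0, 24.5 and 23.6 CPM in KD4 and 22.6, 25.0 and 21.7 CPM in KD6, against 10.9, 16.05 and 11.9 CPM in Scr. The levels there were 22.7, 20.5 and 23.8 CPM in OE and 24.6, 21.3 and 22.2 CPM in EV. All 12 libraries of the other lines were above the 3 Scr libraries, and the log2 ratio of KD to Scr was 0.86.

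Exon 6 (chr1:191328293-191328449) had the largest difference of the 7 exon regions. The levels were 19.8, 22.3 and 21.2 CPM in KD4 and 20.8, 22.4 and 13.7 CPM in KD6, against 8.16, 9.48 and 8.76 CPM in Scr. OE had 20.2, 23.0 and 21.5 CPM, and EV had 24.3, 20.1 and 21.6 CPM. KD6 replicate 3 was the lowest of the other 12 libraries but still above every Scr library. The log2 ratio of KD to Scr was 1.19, and that of Scr to EV was -1.32.

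At exon 7 (chr1:191328999-191329505), the region with most of its bases outside the exon, the difference was the smallest of the 7. The levels were 9.57, 13.8 and 11.7 CPM in KD4 and 9.72, 10.9 and 9.99 CPM in KD6, against 6.68, 7.66 and 7.37 CPM in Scr. OE had 12.4, 10.4 and 10.9 CPM, and EV had 11.2, 10.1 and 9.98 CPM. The groups still did not overlap with Scr, at a log2 ratio of KD to Scr of 0.60.

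The regions at exons 11 and 13 began 32057 and 36124 bp from the start of exon 1, in a gene model of 46910 bp. At exon 11 (chr1:191339932-191340161) KD4 had 18.9, 15.7 and 16.1 CPM and KD6 had 15.97, 18.9 and 14.5 CPM, against 6.37, 9.85 and 9.29 CPM in Scr. OE had 16.9, 15.02 and 14.8 CPM, and EV had 12.1, 14.3 and 15.2 CPM. Scr was again the low line, here with EV a little under KD4 and KD6 on average (log2 ratio of KD to EV 0.27). At exon 13 (chr1:191343999-191344163) KD4 averaged 8.68 ± 0.493 CPM and KD6 7.69 ± 1.64 CPM, against 4.46 ± 0.513 CPM in Scr, with 7.84 ± 0.619 CPM in OE and 7.46 ± 0.939 CPM in EV.

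The 3' end held the region with the most counts. At exon 19 (chr1:191351726-191351881) KD4 had 13.5, 13.1 and 10.99 CPM and KD6 had 12.4, 12.7 and 9.30 CPM, against 5.13, 6.30 and 5.29 CPM in Scr. OE had 12.6, 11.3 and 10.8 CPM, and EV had 10.7, 11.4 and 11.6 CPM. All 3 Scr libraries were below the lowest of the others, KD6 replicate 3. Exon 20, the last exon of the model, held the widest region of the gene (1432 bp, chr1:191353291-191354722). KD4 had 55.7, 55.2 and 47.6 CPM there and KD6 had 53.5, 50.5 and 35.8 CPM, against 21.6, 27.4 and 21.5 CPM in Scr. OE had 51.9, 56.0 and 52.6 CPM, and EV had 63.6, 53.0 and 54.1 CPM. KD6 replicate 3 was again the lowest library outside Scr. The log2 ratio of KD to Scr at exon 20 was 1.08, and that of Scr to EV was -1.01 at exon 19 and -1.27 at exon 20. The region past the last model exon (chr1:191355015-191355794) was much thinner and followed the exons. It had 4.39, 4.50 and 5.03 CPM in KD4 and 4.12, 4.06 and 4.97 CPM in KD6, against 2.41, 2.14 and 2.67 CPM in Scr. OE had 6.34, 5.26 and 5.13 CPM there, and EV had 5.20, 5.09 and 4.71 CPM.

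**Figure D2:**
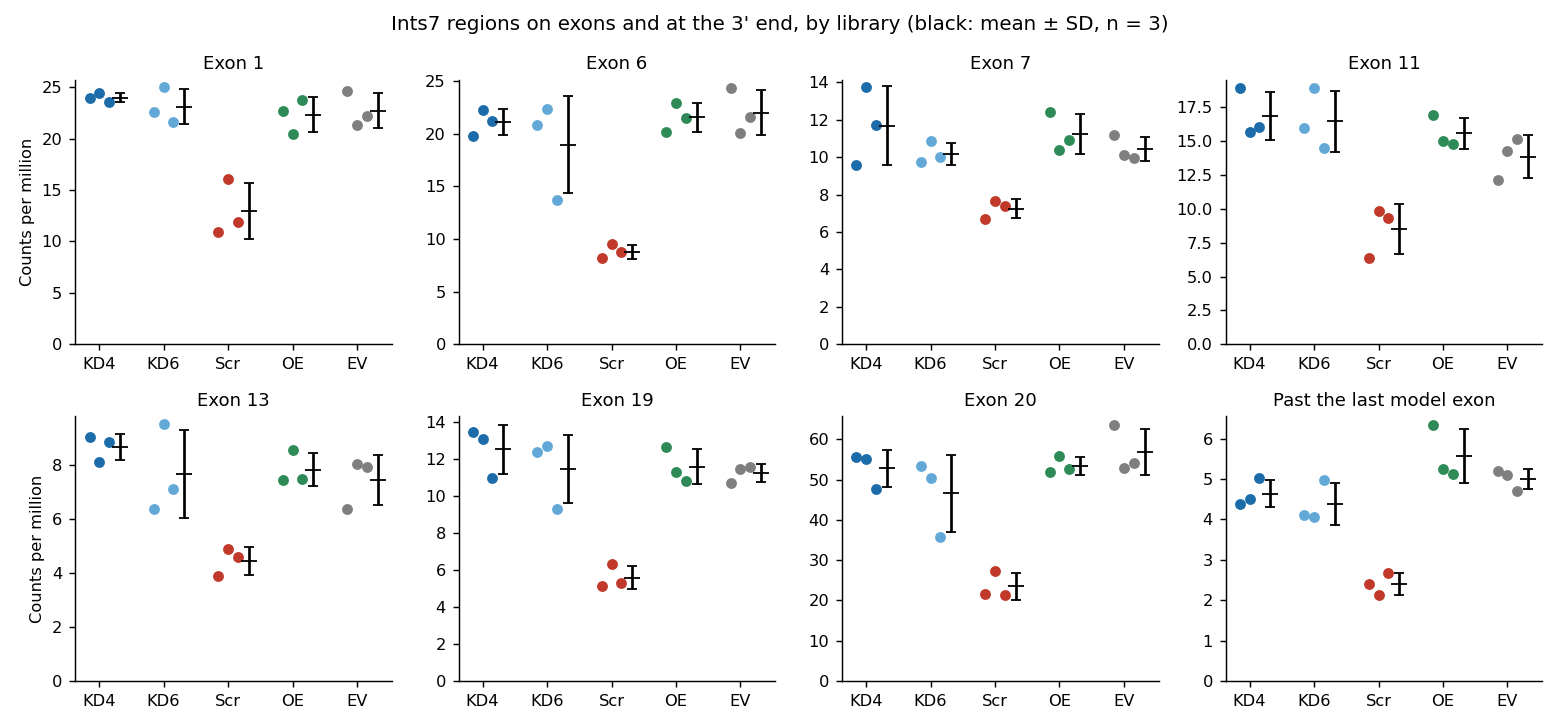
CPM at the 7 Ints7 regions on exons and the region past the last model exon, in each library of KD4, KD6, Scr, OE and EV (points) with the mean ± SD of 3 (black). In all 8 panels the 3 Scr libraries lie below every other library, and the log2 ratio of KD to Scr is largest at exon 6 (1.19).

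In these 8 regions all 3 Scr libraries were below all 12 others, and in 0 of the other 8 Ints7 regions. Over all regions of the KD table, this order was seen in 1.21%. All 6 knockdown libraries were above all 3 Scr libraries in 2.43% of all regions and in the same 8 Ints7 regions. Because the knockdown comparison chose the gene, nothing is read from these shares. For the same reason the Scr to EV ratios, which share the Scr libraries, carry no test. The smallest deposited count of any library was 63 at the exon regions and 7 at a region between exons.

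The remaining regions were low and overlapped between lines. The region before the start (chr1:191306010-191306217) had 2.30 ± 0.719 CPM in KD4, 1.59 ± 0.0629 CPM in KD6, 1.86 ± 0.953 CPM in Scr, 1.93 ± 0.616 CPM in OE and 2.204 ± 0.635 CPM in EV. The 7 regions between exons had means over the 15 libraries of 0.774 to 4.56 CPM, and their log2 ratios ran from -0.24 to 0.44 for KD to Scr and from -0.48 to 0.32 for Scr to EV. The widest of them (685 bp, chr1:191335320-191336004) had 4.93 ± 0.130 CPM in KD4, 4.26 ± 0.297 CPM in KD6, 4.50 ± 0.189 CPM in Scr, 4.43 ± 0.657 CPM in OE and 4.69 ± 1.00 CPM in EV. It resembled the region past the last exon in mean level, and Scr did not stand apart in it.

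**Figure D3:**
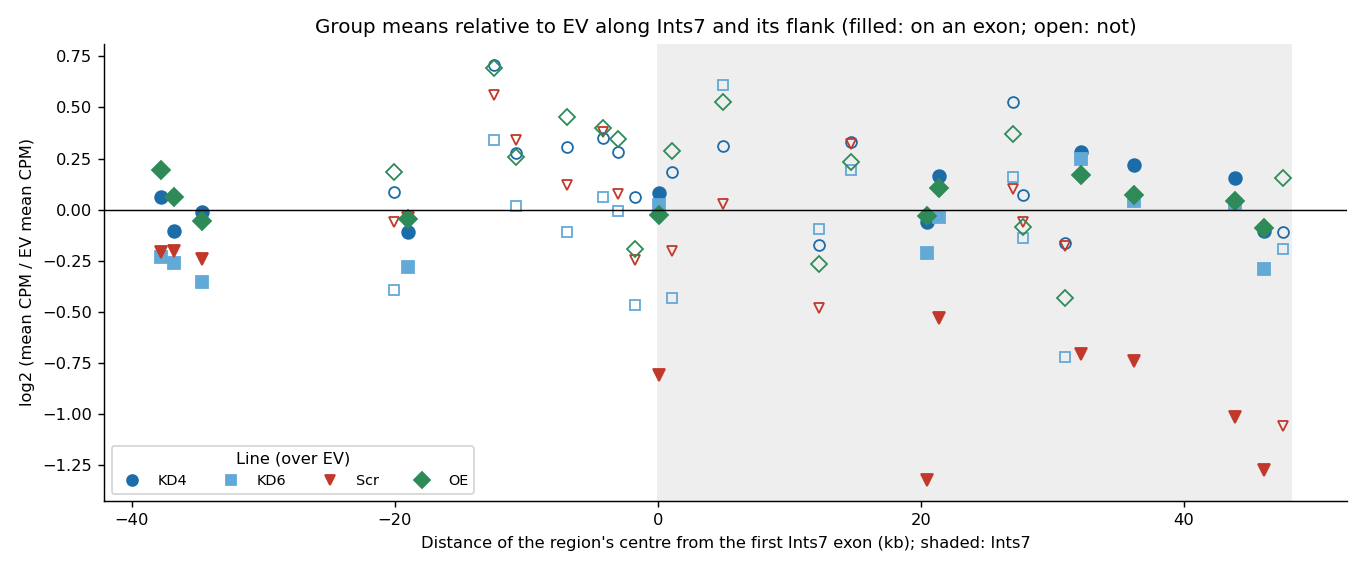
Log2 of the mean CPM of KD4, KD6, Scr and OE over the mean CPM of EV at the 26 Ints7 and flanking regions of the KD table, by distance in kb from the first Ints7 exon. Filled symbols are regions that touch exons of Ints7 or Dtl, open symbols other regions, and the shading spans Ints7. Scr falls to between -0.53 and -1.32 at the Ints7 exons and to -1.06 at the region past the last one, but not at the Dtl exons on the left.

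Fitted with edgeR over the whole KD table, 7 of the 16 Ints7 regions were called higher in KD than in Scr at a false discovery rate (FDR) of 0.05, and 0 lower. They were the exon regions other than exon 7, and the region past the last exon. Of all regions tested in this contrast, 0.255% were called higher and 0.0158% lower. Because this contrast chose the gene, the calls describe it and support nothing. The count rested on the 3 Scr libraries: without Scr replicate 1 or without Scr replicate 3 it was 0 of 16, and 14 and 8 regions were then called higher in the whole table, against 113 with all libraries, while the log2 fold changes of the 8 exon and 3' regions stayed between 0.52 and 1.28 over all 9 libraries left out in turn.

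OE and EV libraries took no part in the choice of the gene, so their comparison could be tested. No difference in Ints7 was found between them. Of the 16 regions of the KD table edgeR called 0, with 0 at an unadjusted p under 0.05 and 0 called by DESeq2. Each of these counts was also 0 for the 9 regions of the OE table. Over all regions, edgeR called 0.0% (0 of 44011, with 2903 at an unadjusted p under 0.05, and 4 called lower by DESeq2) with the KD regions and 0.0106% with the OE regions. At the 7 exon regions the log2 fold change of OE over EV ran from -0.08 to 0.17, with 95% intervals that together reached from -0.31 to 0.45 and adjusted p from edgeR of 0.83 or more. At exon 20, the region with the most counts, it was -0.08 with an interval of -0.31 to 0.15 and an adjusted p of 0.91 (edgeR). The gene body sum differed by 0.00 on the log2 scale (168 against 168 CPM, two-sided exact permutation p = 1.0, n = 3 each), and the ratio of gene body counts to flank counts differed by -0.07 (exact permutation p = 0.6). With 3 libraries against 3, the smallest p this test can give is 0.1.

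KD6 was set against KD4 in the same way, and no difference at Ints7 passed the test. The libraries of both lines had entered, as a mean, the contrast that chose the gene, so closeness of the 2 lines at these regions is not independent of that choice. Of the 16 KD regions edgeR called 0 and DESeq2 called 0, with 2 at an unadjusted p under 0.05, against 2820 of 44289 over all regions. Of the 9 OE regions edgeR called 0, with 0 at an unadjusted p under 0.05. Over all regions edgeR called 0.151% higher and 0.0723% lower in KD6 with the KD regions (0.224% in all), and 0.166% higher and 0.0238% lower with the OE regions (0.19% in all). The log2 fold change of KD6 over KD4 ran from -0.20 to -0.03 at the 7 exon regions, with 95% intervals that together reached from -0.55 to 0.32. Both regions with a low unadjusted p lay between exons and were lower in KD6: one just past exon 1 (chr1:191308762-191309126, log2 fold change -0.63, edgeR adjusted p = 0.77) and one before exon 11 (chr1:191338748-191338938, -0.56, edgeR adjusted p = 0.73). The gene body sum was 0.16 lower in KD6 on the log2 scale (difference -0.16, exact permutation p = 0.2), and over the flank, where KD6 was lower too, it was 0.14 higher (exact permutation p = 0.4). The sum of the 8 regions between exons and before the start differed by -0.27 (exact permutation p = 0.1, the smallest possible), and that of the exon regions by -0.15 (exact permutation p = 0.4).

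**Figure D4:**
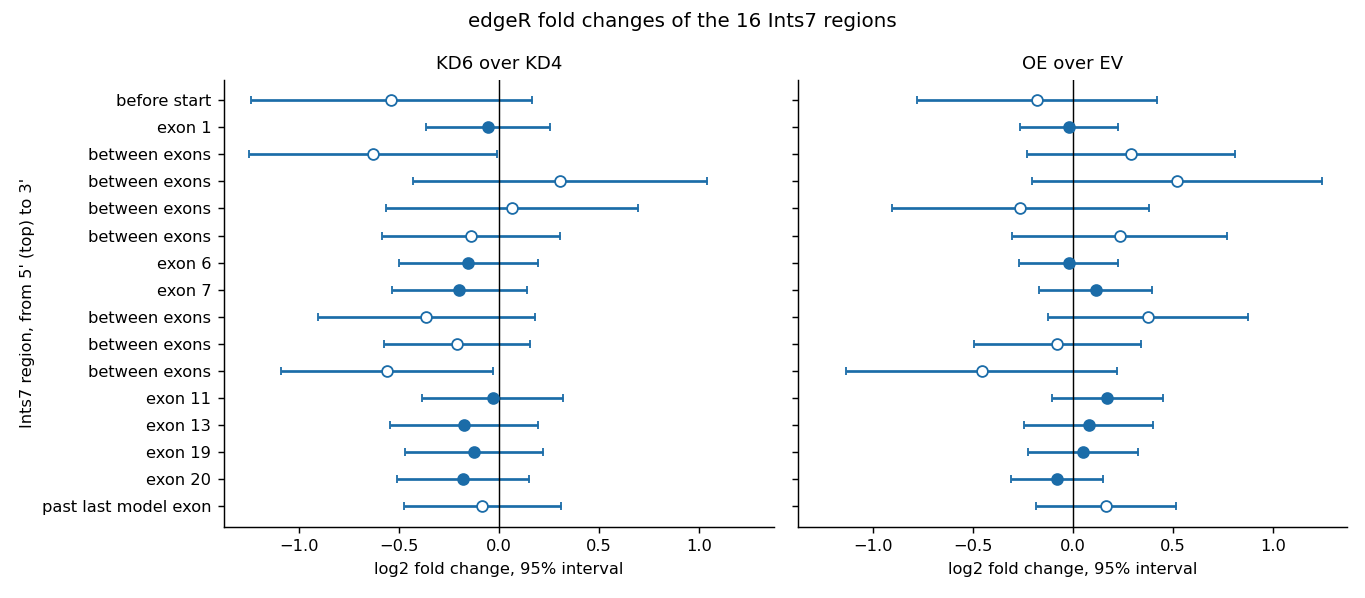
Log2 fold changes with 95% intervals from edgeR for the 16 Ints7 regions of the KD table, from the 5' end (top) to the 3' end, for KD6 over KD4 (left) and OE over EV (right). Filled points are regions on exons. The exon points lie between -0.20 and -0.03 on the left and between -0.08 and 0.17 on the right, and every exon interval includes 0.

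The OE table, built from other peaks, listed narrower regions with the same split. Its region within exon 11 (chr1:191339952-191340156) had 12.2 ± 0.846 CPM in KD4, 11.7 ± 1.75 CPM in KD6 and 5.82 ± 1.67 CPM in Scr, with 10.7 ± 1.04 CPM in OE and 10.1 ± 1.02 CPM in EV. Exon 20 held 2 regions there. The first (chr1:191353351-191353529) had 10.6 ± 0.533 CPM in KD4, 8.80 ± 1.92 CPM in KD6 and 3.86 ± 0.845 CPM in Scr, with 9.83 ± 1.07 CPM in OE and 9.72 ± 1.12 CPM in EV. The second (chr1:191354327-191354665) had a log2 ratio of KD to Scr of 1.08, and the region past the last exon (chr1:191355204-191355469) one of 1.16. In these 4 regions all 3 Scr libraries were below the 12 others, an order that 1.19% of the OE table had, and 3 of the 4 were called higher in KD, with 0.0739% of all OE regions called higher and 0.0898% lower. The region with 5.44% of its bases on exon 5 (chr1:191326313-191326551) had 1.57 ± 0.328 CPM in KD4, 1.70 ± 0.622 CPM in KD6 and 1.82 ± 0.611 CPM in Scr, and it overlapped between the lines, as did the 4 regions between exons (log2 ratio of KD to Scr -0.01 to 0.34). The libraries are those of the KD table, so the OE table is not a second sample.

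The regions most like the summed gene body across the 15 libraries were sought among 23790 regions of at least 5 CPM that lay over 500 kb away or on other chromosomes. The closest was chr15:81733292-81734696, with a Pearson r of 0.956 for log2(CPM + 1), and next came chr14:25714128-25715794 (r 0.950) and chr14:47004662-47004837 (r 0.944). The other 2 of the 5 closest were neighbours on chromosome 18 (r 0.943 and 0.941). In all 5 the Scr libraries were below the 12 others, an order that 1.21% of all regions of the KD table had. That order was largely set by how the 5 were picked, since the Ints7 sum is itself low in Scr. Nothing is read from it. Their log2 ratio of Scr to EV ran from -0.49 to -0.81, against -0.88 for the Ints7 sum. Ints7 had been chosen for its difference from Scr, so these gaps are not compared. The libraries share their depth and scaling across regions, and the r of the Ints7 sum with log2 total counts was 0.54.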

How the data were processed

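Libraries of 5 6DT1 lines, deposited as ATAC-seq, were analysed, with groups and replicate numbers from the sample labels. The values are expected counts per region, deposited by the authors without normalization. Whole numbers made up 95.1% of the KD values and 95.0% of the OE values. According to the methods, the authors used Bowtie2 (mm39) and MACS within Partek Flow, whereas the submitters' processing notes name STAR 2.7.8a. The steps that merged and counted regions are not given in the sources used here. Per table, 15 further columns could be matched to no sample and were left out.

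Expected counts were rounded and tested with edgeR 4.0.16 in R 4.3.3 (quasi-likelihood fit, TMM, the tool's filter on low counts, FDR of 0.05 over all regions tested). The fixed design assumed whole counts. For the knockdown, KD4 and KD6 were averaged and Scr subtracted. Levels are CPM with TMM scaling over all 15 libraries, and sums were tested by exact permutation (two-sided, scipy 1.17.1). Alternatives were DESeq2 1.42.0, other scalings and filters, a replicate block, other flanks, the other table's regions and each library left out in turn. The variance between replicates was at least 4.20 times that of sampling noise, so each library was counted as 1 sample. The fits were tested on simulated data.

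All regions of the rule are named or given by range, and flanking regions by their sums. The rule, the groups of regions and the lists were chosen with earlier results of these data known. Exon positions come from the exon spacing of GENCODE M1 alone, and no coordinates were converted. Tests over all gene bodies, over the Integrator genes and over marker genes were planned but need an mm39 annotation and were not run. Replicates were separate passages per the labels, and p-values cover their spread alone.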

Additional observations from a re-analysis of the deposited data

How the results depend on the processing

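Scaling, filters and DESeq2 left 6 or 7 Ints7 regions called higher in KD than in Scr, the fit with the replicate number as a block left 5, the OE table had 3 of its 9 regions called, and leaving out 1 library gave 0 to 7 (0 without Scr replicate 1 or without Scr replicate 3). In KD6 against KD4 and in OE against EV, 0 Ints7 regions were called under every alternative that was run. Over all regions DESeq2 called 248 higher and 22 lower in KD, and 159 higher and 89 lower in KD6 against KD4. The log2 ratio of the gene body sum of KD to Scr was 0.78 to 0.95 without 1 library in turn. It was 0.068 with the regions between exons and before the start alone, an alternative chosen after seeing the data. The ratio over the flank was 0.78 to 0.85 without 1 library in turn and 0.71 with the regions of the OE table. Differences that were near 0 changed sign. The sum of OE over EV was -0.0055 with RLE scaling, -1.5e-05 without regions within 1 kb of the gene start and -0.0086 for exon regions alone, and -0.037 to 0.038 without 1 library in turn. The ratio over the flank for OE over EV was 0.044 with the OE table and -0.16 to -0.01 without 1 library in turn, and that for KD6 over KD4 was -0.14 with flanks of 200 kb. The largest shift from scaling was in OE over EV, where the median over all OE regions was 0.12 without TMM. Samples with the same replicate number did not deviate together in every pair (correlations of -0.20 to 0.24 over 9 pairs of the shRNA lines and of -0.03 to 0.30 over 3 pairs of OE and EV, with 5 of 9 and 4 of 6 libraries correlating best with their own number), so the numbers were not used as a pairing. With the block, 95 regions were called higher and 4 lower in KD over the whole table. Depth limits the regions between exons, where 1 library had 7 counts.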

Other observations

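Neighbouring exon regions shared counts. In the KD table the regions at exon 6 and exon 7 are 549 bp apart. The deposited value at exon 6 was over 0.01 counts from a whole number in 15 of 15 libraries, and the sum of the pair was within 0.01 of one in 15 of 15. The regions at exon 19 and exon 20 are 1409 bp apart. By the same tolerance, the value at exon 19 was not whole in 14 of 15 libraries, and the pair sum was whole in 14 of 15. Of all values in the KD regions, 95.1% were whole. The regions of a pair are therefore not separate measurements, and the sums over the gene, which hold both members, do not depend on how their counts were divided. Whether this sharing bears on what kind of fragments were counted was not tested.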
